A study of Mus musculus with 16 samples.

Results

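Mitochondrial ribosomal proteins were examined in 5 populations of mouse hematopoietic stem cells (HSCs) separated by their surface level of MAC-1. The genes were all rows of the count table named Mrpl or Mrps, then a number and at most 1 letter, which gave 78 of 46078 rows. These are 77 gene symbols, since Mrps23 stands on 2 rows. After a filter on low counts 76 were tested, among 13661 genes tested in all. The rows not tested were Mrpl53, with 0 to 6 counts per sample, and the second Mrps23 row, listed at 0 in every sample.

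Mitochondria carry their own ribosomes, which translate the few proteins that the mitochondrial genome encodes, all of them parts of the respiratory chain and the ATP synthase. Their RNA comes from the mitochondrial genome, while every protein of the large (Mrpl) and small (Mrps) subunits is encoded in the nucleus and imported. Some proteins have counterparts in the bacterial ribosome and others are specific to mitochondria. Quiescent HSCs are known for a low reliance on respiration.

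HSCs were LSK SLAM cells, sorted from bone marrow as Kit+ Sca1+ CD48- CD150+ cells without lineage markers. Steady-state (SS) HSCs were labelled untreated and sorted as SS MAC-1- (3 samples) and SS MAC-1low (3 samples). The 4 week HSCs came from recipients irradiated with 900 cGy that had received 8000 LSK cells 4 weeks earlier, and were sorted as 4 week MAC-1- (3 samples), 4 week MAC-1low (4 samples) and 4 week MAC-1+ (3 samples). The study asked how HSCs with different levels of MAC-1 differ during regeneration. The labels give the strain B6.SJL and the genotype WT for all 16 samples, without saying for 4 week HSCs whether this is the donor or the recipient. In the serial transplantations of the study, the 8000 LSK cells came from B6.SJL donors. Recipients were of another strain and also received support marrow of the recipient type, and donor HSCs were sorted from them. The study does not state this separately for the sequenced samples. The sources used here do not give the age of the mice, and the labels do not say whether samples of a population came from separate animals, so p-values measure the spread between samples, which may be technical.

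Totals ran from 13781278 to 28580658 counts per sample, and 0.836% to 1.55% of the counts fell on the genes described here. A count of 0 allowed up to 3 counts, or 0.105 to 0.218 CPM (counts scaled to the library total) before TMM factors, a limit that covers counting error only. All other CPM include TMM factors, which correct the totals for differences in composition. Each of 6 HSC markers (Kit, Ly6a, Slamf1, Procr, Mecom, Hlf) was detected in every population. Their summed level was lowest in 4 week MAC-1- samples (529 to 696 CPM) and highest in 4 week MAC-1+ samples (2069 to 3153 CPM). Kit, Ly6a, Procr, Mecom and Hlf were each higher in every 4 week MAC-1+ than in any 4 week MAC-1- sample. Slamf1 was not, at 7.98, 0.126 and 129 CPM in 4 week MAC-1+ and 68.6, 74.0 and 71.1 CPM in 4 week MAC-1- replicates. SS MAC-1- replicate 3 stood apart, with 17576 genes detected against 14533 to 16675 in the other samples, and Mrps22 had 0 counts in it.

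The levels of the mitochondrial ribosomal proteins, given per kb of exon length since longer transcripts yield more reads, spanned a wide range. The length joins the exons of all annotated transcripts of a gene, so it can exceed that of the transcript made. The highest mean level over all 16 samples was that of Mrps18c, a small subunit protein of the bacterial S18 family, at 664 CPM per kb. It was followed by Mrpl42 at 432, Mrps21 at 312, Mrps14 at 263 and Mrps24 at 249 CPM per kb. The lowest levels were those of Mrps5 at 1.96, Mrps27 at 5.29, Mrps35 at 5.64, Mrps30 at 6.95 and Mrpl19 at 7.39 CPM per kb. Without division by length, Mrps35 (48.7 CPM), Mrps30 (46.3 CPM) and Mrpl19 (40.3 CPM) lay above Mrps34 (17.9 CPM). The 3 Mrps18 paralogs thus differed widely, as Mrps18a had 17.4 and Mrps18b 10.6 CPM per kb. Despite their names, Mrps18a and Mrps30 are proteins of the large subunit and were counted with it. Mrps36, now known as a part of the 2-oxoglutarate dehydrogenase complex, was counted with neither subunit.

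The spread between samples also differed from gene to gene. The coefficient of variation over the 16 samples was smallest for Mrpl33 (20.8%), Mrpl50 (22.5%), Mrpl52 (22.6%), Mrps17 (23.3%) and Mrps24 (25.1%). It was largest for Mrps31 (86.5%), Mrps18b (77.6%), Mrps27 (74.0%), Mrpl38 (73.4%) and Mrpl10 (68.6%). In these last genes single samples of a population differed severalfold. Mrps31, for instance, had 2.27, 78.2 and 59.1 CPM in the 3 SS MAC-1- samples.

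The mean summed level of the 76 tested genes was highest in SS MAC-1- and lowest in 4 week MAC-1+ HSCs, and the SS MAC-1low samples overlapped with the 4 week MAC-1- samples. It was 15703, 15098 and 15020 CPM in SS MAC-1- replicates 1 to 3 and 13320, 13905 and 12879 CPM in the SS MAC-1low samples. In the 4 week MAC-1- samples it was 13542, 15524 and 15034 CPM. It was 9396, 12616, 11288 and 12008 CPM in 4 week MAC-1low samples. For the 4 week MAC-1+ samples it was 10142, 8113 and 7699 CPM. All 4 week MAC-1+ samples thus lay below all samples of both SS populations and of 4 week MAC-1- HSCs, but they overlapped with the 4 week MAC-1low samples. The mean of 4 week MAC-1+ HSCs (8651 ± 1307, SD, n = 3) was 58.9% of that of 4 week MAC-1- HSCs (14700 ± 1032, SD, n = 3) and 56.6% of that of SS MAC-1- HSCs (15274 ± 374, SD, n = 3). The mean of SS MAC-1low HSCs was 13368 ± 515 (SD, n = 3) and that of 4 week MAC-1low HSCs 11327 ± 1397 (SD, n = 4), which do not overlap either. The sums are given as a description, with no test.

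**Figure D1:**
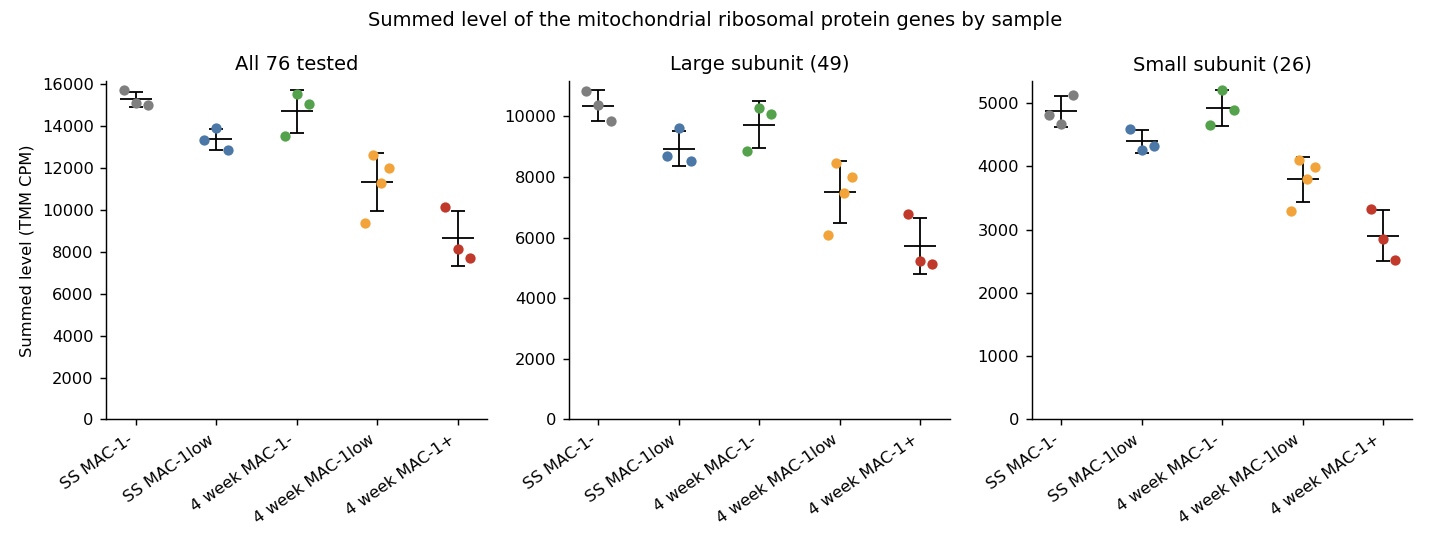
Summed level of the tested mitochondrial ribosomal protein genes in CPM scaled with TMM factors (y axis) in each of the 16 samples, for all 76 genes, the 49 of the large and the 26 of the small subunit. Points are samples, black lines the mean with SD. The 4 week MAC-1+ samples (7699 to 10142 CPM for all genes) lie below every sample of SS MAC-1-, SS MAC-1low and 4 week MAC-1- HSCs.

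Both subunits showed this alike. The large subunit proteins summed to 5723 ± 924 CPM in 4 week MAC-1+ and 9726 ± 775 CPM in 4 week MAC-1- HSCs (SD, n = 3 each), or 58.8%. The small subunit proteins summed to 2903 ± 401 and 4921 ± 278 CPM (SD, n = 3 each), or 59.0%. The 30 large subunit proteins with a bacterial counterpart stood at 59.4% and the 19 specific to mitochondria at 58.0%. In the small subunit these figures were 58.2% for 16 proteins with a bacterial counterpart and 63.7% for 10 without. In bulk samples fewer cells of a type and less RNA per cell cannot be told apart.

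Between the MAC-1+ and MAC-1- populations of week 4, 9 of 76 genes were lower and 0 were higher in MAC-1+ HSCs by edgeR's quasi-likelihood test (adjusted p below 0.1 over all genes tested). Of all genes tested, 3.25% were called in either direction and 2.06% were lower. The 9 were Mrps28 and Mrps14 of the small subunit and Mrpl14, Mrpl17, Mrpl30, Mrpl35, Mrpl36, Mrpl41 and Mrpl42 of the large subunit. For higher genes, DESeq2 and limma-voom also called 0, and DESeq2 called 20 and limma-voom 15 genes in either direction, while these tools called 11.6% and 6.52% of all genes. The estimated log2 fold change was negative for 71 of 76 genes (93.4%), against 47.3% of all genes tested. Its median was -0.69 for these genes and 0.07 for all genes. At an unadjusted p below 0.05 there were 28 of 76 genes, and 13.4% of all genes.

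**Figure D2:**
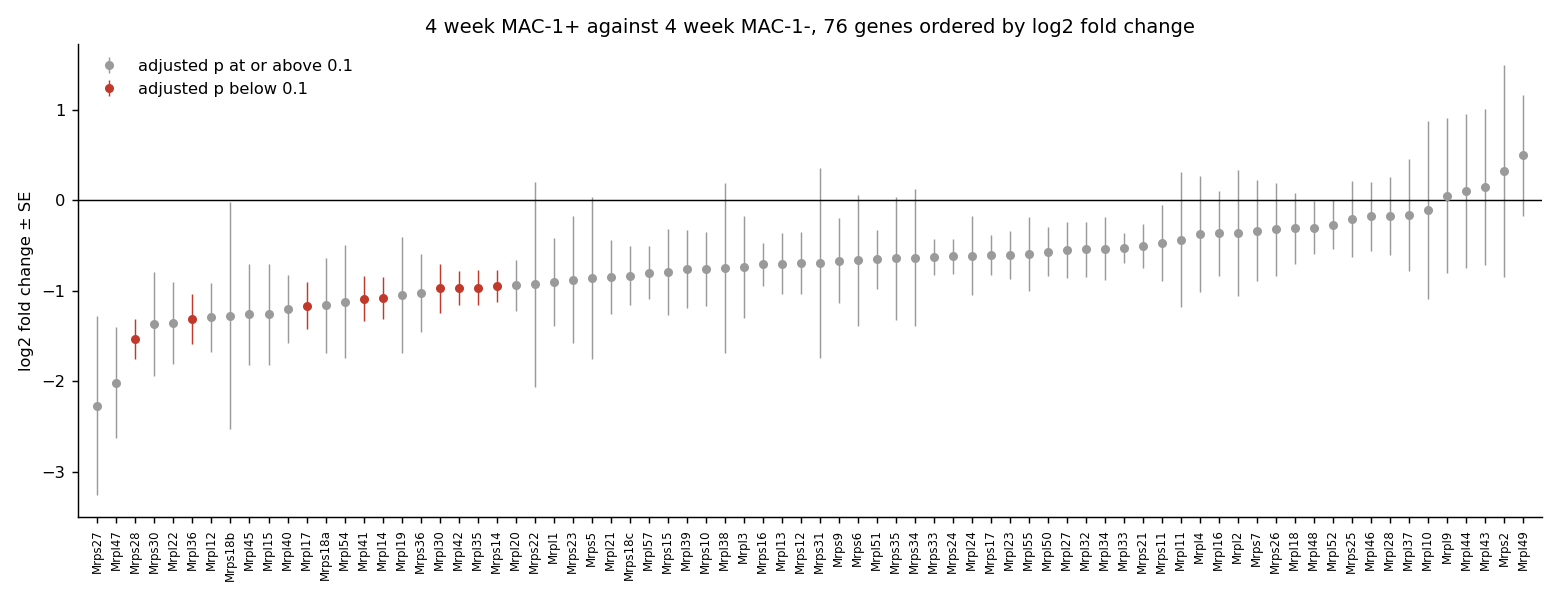
Log2 fold change of each of the 76 genes between the MAC-1+ and MAC-1- populations of week 4 (y axis, bars are SE), with genes ordered along the x axis. Red marks the 9 genes with adjusted p below 0.1, all of them below 0. For 71 genes the estimate is negative, and the genes with the lowest estimates, Mrps27 and Mrpl47, have wide errors.

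Mrps28, a small subunit protein, differed most clearly. Its level was 86.7, 98.0 and 84.6 CPM in 4 week MAC-1+ samples, 239, 245 and 296 CPM in 4 week MAC-1- and 117, 184, 182 and 177 CPM in 4 week MAC-1low samples. The SS MAC-1- samples had 249.9, 201 and 248 CPM and the SS MAC-1low samples 195, 252 and 226 CPM. The 4 week MAC-1+ samples lay below all others, at a mean of 34.6% of 4 week MAC-1- HSCs. The log2 fold change against 4 week MAC-1- was -1.53 (SE 0.22, adjusted p = 0.00204).

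Mrps14, a small subunit protein with a bacterial counterpart, had 567, 501 and 446 CPM in 4 week MAC-1+ samples and 885, 1018 and 1010 CPM in 4 week MAC-1- samples. The 4 week MAC-1low samples had 589.9, 929, 733 and 726 CPM, of which replicate 2 was within the range of the MAC-1- samples. The SS MAC-1- samples had 1081, 1216 and 1207 CPM and the SS MAC-1low samples 946, 1114 and 748 CPM, which overlap. The 4 week MAC-1+ samples lay below all others. Its log2 fold change between the MAC-1+ and MAC-1- populations of week 4 was -0.94 (SE 0.18, adjusted p = 0.0123). Mrps28 and Mrps14 were the 2 of the 9 genes that stayed called when only the samples of the compared populations were fitted.

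Mrpl42, a large subunit protein specific to mitochondria, had the most counts of the 9 genes. The 4 week MAC-1+ samples had 1169, 965 and 826 CPM and the 4 week MAC-1- samples 1684, 2124 and 1982 CPM. One 4 week MAC-1low sample, replicate 1 with 863 CPM, was within the range of the MAC-1+ samples, while the other 3 had 1370 to 1541 CPM. The log2 fold change was -0.97 (SE 0.19, adjusted p = 0.0151).

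The other 6 genes encode large subunit proteins, of which Mrpl14, Mrpl17, Mrpl30, Mrpl35 and Mrpl36 have bacterial counterparts and Mrpl41 does not. Mrpl36 fell the furthest, from 331 to 356 CPM in 4 week MAC-1- to 83.9 to 206 CPM in 4 week MAC-1+ samples (log2 fold change -1.31, SE 0.27, adjusted p = 0.0215). Mrpl17 had 105 to 168 CPM in 4 week MAC-1+ and 291 to 317 CPM in 4 week MAC-1- samples (-1.16, SE 0.26, adjusted p = 0.0304). In all of these 6 genes the samples of both populations did not overlap.

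Mrpl41 had 79.5 to 125 CPM in 4 week MAC-1+ and 209 to 250.1 CPM in 4 week MAC-1- samples (log2 fold change -1.09, SE 0.25, adjusted p = 0.0355). Mrpl14 had 72.6 to 95.7 and 171 to 199 CPM (-1.08, SE 0.23, adjusted p = 0.0235). The gene shares 11.2% of its exon length with Tmem63b on the other strand, and these libraries do not mark the strand. Mrpl35 had 188 to 225 and 339 to 459.7 CPM (-0.96, SE 0.19, adjusted p = 0.0178). Mrpl30 had 104 to 238 and 273 to 441 CPM (-0.97, SE 0.27, adjusted p = 0.0884), close to the threshold, and it was called in 2 of 16 fits that each left out 1 sample.

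**Figure D3:**
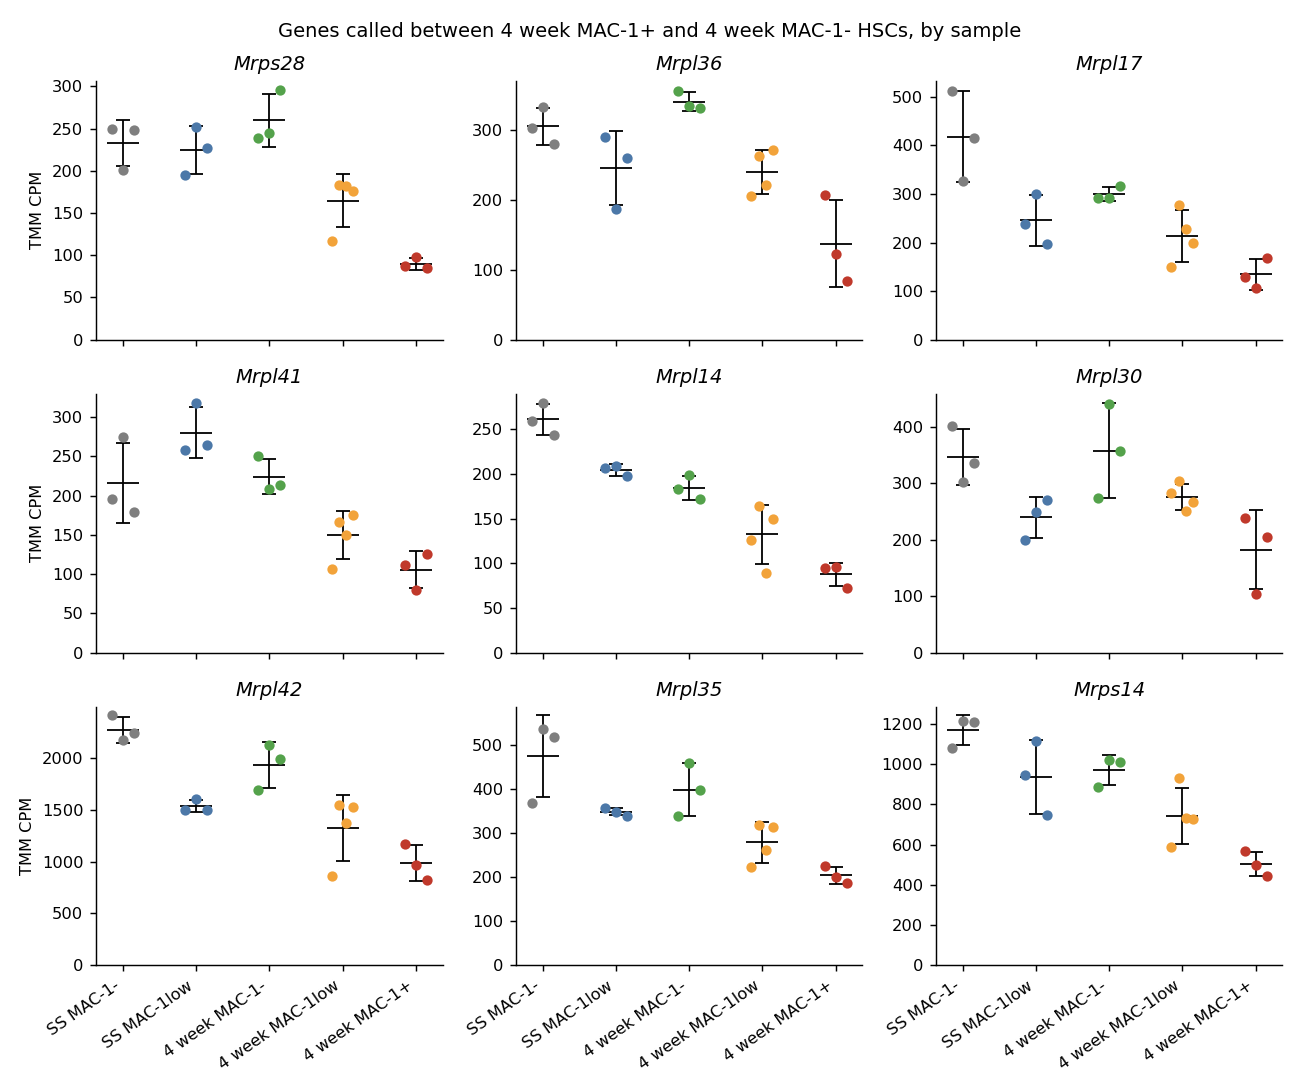
Level in CPM (y axis) of the 9 genes called between the MAC-1+ and MAC-1- populations of week 4 in all 16 samples, by population (x axis). Points are samples, black lines the mean with SD. In each panel the red points of 4 week MAC-1+ HSCs lie below the green points of 4 week MAC-1- HSCs, as for Mrps28 with 84.6 to 98.0 against 239 to 296 CPM.

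Larger estimates did not pass the test where samples scattered. Mrps27, at 2.18, 7.29 and 3.44 CPM in 4 week MAC-1+ and 27.6, 9.36 and 25.2 CPM in 4 week MAC-1- samples, had a log2 fold change of -2.27 (SE 0.99, adjusted p = 0.335). Mrpl47, named after its values were seen, had 57.3, 4.77 and 37.6 CPM against 114, 171 and 117 CPM (-2.01, SE 0.61, adjusted p = 0.128). The samples did not overlap in 35 of 76 genes, all lower in 4 week MAC-1+ HSCs, while 11.5% of all genes tested were lower without overlap.

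The 5 genes with a positive estimate were Mrpl49 (0.50, SE 0.67), Mrps2 (0.33, SE 1.17), Mrpl43 (0.15, SE 0.87), Mrpl44 (0.11, SE 0.85) and Mrpl9 (0.05, SE 0.85), with adjusted p from 0.861 to 0.996. Single samples set these values. Mrpl49 had 119 CPM in 4 week MAC-1+ replicate 1 and 35.6 and 31.8 CPM in the other two, against 34.4 to 54.2 CPM in 4 week MAC-1- samples. Each of the 5 estimates changed sign when 1 of the samples was left out.

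Calls in this comparison depended on single 4 week MAC-1+ samples. There were 13 called genes without replicate 1, 5 without replicate 2 and 6 without replicate 3. The share of all genes called was not recorded for fits with 1 sample left out. Mrps28, Mrps14 and Mrpl42 stayed called in all 16 fits that left out 1 sample. Fitting the 6 compared samples alone called 2 of 76 genes, with 1.32% of all genes called.

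Some markers of other cells also differed between the MAC-1+ and MAC-1- populations of week 4. The 8 neutrophil markers summed to 164, 951 and 7304 CPM in 4 week MAC-1+ replicates 1 to 3 and to 23.1 to 69.7 CPM in the 4 week MAC-1- samples, where Ltf, Lcn2 and Elane were at 0. Only 4 week MAC-1+ replicate 3 held all 8. Elane and Mpo were at 0 in replicates 1 and 2, and Ltf and Lcn2 were at 0 in replicate 1. The neutrophil markers summed to 131 to 168 CPM in SS MAC-1low samples, a range that holds the value of 4 week MAC-1+ replicate 1. They summed to 79.4 to 111 CPM in SS MAC-1- and 38.4 to 148 CPM in 4 week MAC-1low samples. The summed level of mitochondrial ribosomal proteins was 10142, 8113 and 7699 CPM in 4 week MAC-1+ replicates 1 to 3. It was 13542 to 15524 CPM in 4 week MAC-1- and 9396 to 12616 CPM in 4 week MAC-1low samples. In SS MAC-1- samples it was 15020 to 15703 CPM and in SS MAC-1low samples 12879 to 13905 CPM. The 6 megakaryocyte markers summed to 4135 to 6661 CPM in 4 week MAC-1- samples, where Gp6 was seen only in replicate 1, at 0.063 CPM. They summed to 136 to 186 CPM in 4 week MAC-1+ samples, where Gp1bb was at 0 in every sample. In SS MAC-1- samples the megakaryocyte markers summed to 586 to 1064 CPM. The 10 cell cycle genes summed to 1037 to 1476 CPM in 4 week MAC-1+, 1858 to 2366 CPM in 4 week MAC-1- and 924 to 1087 CPM in SS MAC-1- samples. The 5 T and NK cell markers summed to 16 to 176 CPM in 4 week MAC-1+ and 323 to 644 CPM in 4 week MAC-1- samples. Nearly all of it was Nkg7, with Cd3e and Cd8a at 0 in both populations. The 6 monocyte and macrophage markers summed to 0.237, 0.126 and 108.5 CPM in 4 week MAC-1+ replicates 1 to 3 and 0.038 to 5.90 CPM in 4 week MAC-1- samples. The 4 B cell markers summed to 15.1 to 119 and 6.40 to 33.6 CPM, which overlap. The part of these cells and of cycling in the differences was not tested.

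4 week MAC-1low HSCs lay between the other 4 week populations for most genes. The mean fell from MAC-1- to MAC-1low and again from MAC-1low to MAC-1+ HSCs for 58 of 76 genes and for 23% of all genes tested. It rose at both steps for 1. No single gene was called at either step by edgeR. Between the MAC-1low and MAC-1- populations of week 4 0 of 76 were called (0.278% of all genes) and 9 had an unadjusted p below 0.05 (7.25% of all genes), while DESeq2 called 1 (4.03% of all genes) and limma-voom 2 (2.34%). The median log2 fold change was -0.37 and 70 of 76 estimates were negative, against 47.6% of all genes. Between the MAC-1+ and MAC-1low populations of week 4 0 of 76 were called (0% of all genes) and 17 had an unadjusted p below 0.05 (6.85% of all genes), while DESeq2 called 3 (3.17% of all genes) and limma-voom 0 (0.0366%). The median was -0.38 and 63 of 76 were negative. Both comparisons share the 4 week MAC-1low samples.

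**Figure D4:**
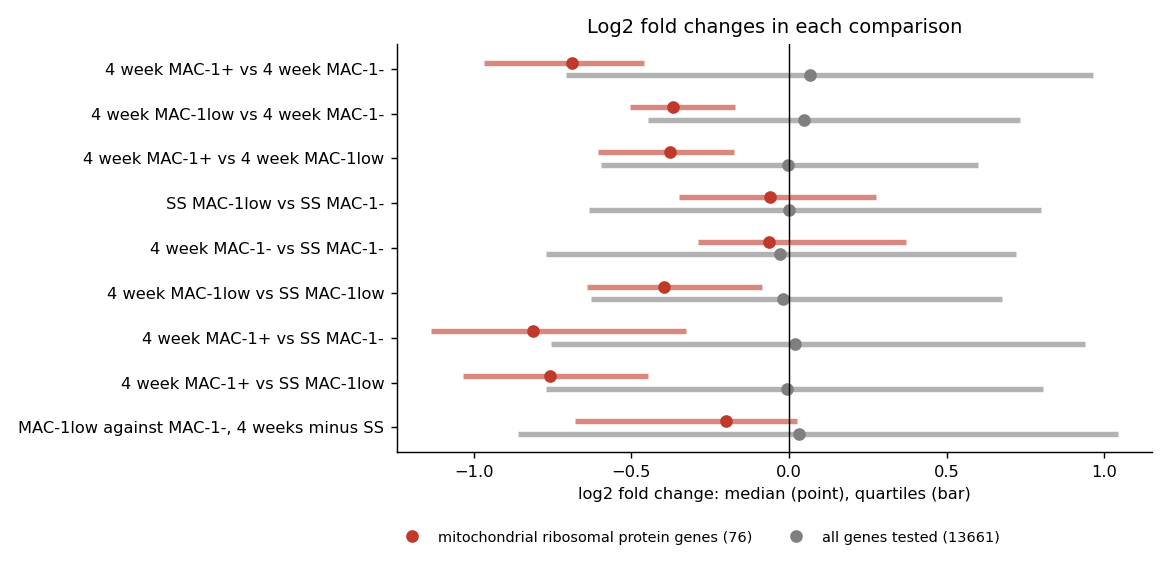
Median (point) and quartiles (bar) of the log2 fold changes (x axis) of the 76 mitochondrial ribosomal protein genes, in red, and of all 13661 genes tested, in grey, for each comparison (y axis). The red medians lie at -0.69, -0.81 and -0.76 where 4 week MAC-1+ HSCs are compared with 4 week MAC-1-, SS MAC-1- and SS MAC-1low HSCs, and near 0 where SS populations are compared.

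4 week MAC-1+ HSCs were also compared with both SS populations, which share the same 4 week MAC-1+ samples. Compared with SS MAC-1-, 14 of 76 genes were lower and 0 higher, while 2.36% of all genes were called and 1.59% were lower. These were Mrps14, Mrps17, Mrps21, Mrps24, Mrps28 and Mrps33 of the small and Mrpl14, Mrpl17, Mrpl22, Mrpl33, Mrpl35, Mrpl36, Mrpl41 and Mrpl42 of the large subunit. DESeq2 called 23 (12.3% of all genes) and limma-voom 12 (1.62%), with 0 higher in both. The median log2 fold change was -0.81 (all genes 0.02) and 31 of 76 had an unadjusted p below 0.05, as had 14% of all genes. Fitting only these 2 populations left 2 of the 76 called (0.168% of all genes), and without SS MAC-1- replicate 2 there were 9.

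Among the 9 genes already described, Mrpl17 and Mrpl14 had the lowest estimates against SS MAC-1-. Mrpl17 had 512, 326 and 416 CPM in the SS MAC-1- samples (log2 fold change of 4 week MAC-1+ against SS MAC-1- -1.64, SE 0.26, adjusted p = 0.00729). Mrpl14 had 260, 279 and 244 CPM (-1.58, SE 0.23, adjusted p = 0.00552). Neither overlapped with the 4 week MAC-1+ samples.

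Mrps33, a small subunit protein specific to mitochondria, was called against SS MAC-1- but not against 4 week MAC-1- HSCs. It had 343, 331 and 425 CPM in SS MAC-1-, 221, 295 and 259 CPM in 4 week MAC-1- and 163, 155 and 184 CPM in 4 week MAC-1+ samples. The log2 fold change against SS MAC-1- was -1.13 (SE 0.20, adjusted p = 0.0132) and that against 4 week MAC-1- was -0.63 (SE 0.20, adjusted p = 0.151), and the difference between these was not tested as such.

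Mrpl33, the least variable gene, had 855, 886 and 812 CPM in SS MAC-1- and 547, 445 and 509 CPM in 4 week MAC-1+ samples (-0.77, SE 0.16, adjusted p = 0.0363). Mrpl22 showed the largest of these 14 changes (-2.03, SE 0.46, adjusted p = 0.0501), from 164, 274 and 243 CPM to 61.4, 19.1 and 86.4 CPM. Mrps24 (-0.90, SE 0.20, adjusted p = 0.0396), Mrps21 (-1.05, SE 0.25, adjusted p = 0.0595) and Mrps17 (-0.86, SE 0.22, adjusted p = 0.0771) were nearer the threshold.

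Compared with SS MAC-1low, 6 of 76 genes were lower in 4 week MAC-1+ HSCs and 0 higher, while 1.42% of all genes were called and 0.834% were lower. They were Mrps28, Mrps14, Mrpl14, Mrpl35, Mrpl40 and Mrpl41. The clearest was Mrps28 (log2 fold change -1.32, SE 0.22, adjusted p = 0.0268). Mrpl40, a large subunit protein specific to mitochondria that was called only here, had 153, 242 and 151 CPM in SS MAC-1low and 90.8, 57.3 and 47.4 CPM in 4 week MAC-1+ samples (-1.48, SE 0.38, adjusted p = 0.0971). Its samples in these populations did not overlap. Mrpl40 and Mrpl35 (adjusted p = 0.0967) were close to the threshold, and each stayed called in 2 of 16 fits that left out 1 sample. Without SS MAC-1low replicate 2 no gene was called, and without 4 week MAC-1+ replicate 2 or 3 there were 2, and without SS MAC-1low replicate 1 there were 3. DESeq2 called 17 (9.41% of all genes) and limma-voom 4 (0.908%), with 0 higher in both.

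The remaining comparisons called 0 of the 76 genes by edgeR. Between SS MAC-1low and SS MAC-1- HSCs (0.0146% of all genes called) the median log2 fold change was -0.06, 42 of 76 estimates were negative (55.3%, all genes 49.7%), and 7 had an unadjusted p below 0.05, as had 9.36% of all genes. DESeq2 called 3 (6.78% of all genes) and limma-voom 0 (0%). Between 4 week MAC-1- and SS MAC-1- HSCs (0.432% called) the median was -0.06, 43 of 76 were negative (56.6%, all genes 51.3%) and 7 had an unadjusted p below 0.05, as had 10.4% of all genes. DESeq2 called 2 (7.81% of all genes) and limma-voom 0 (0.637%). Between 4 week MAC-1low and SS MAC-1low HSCs (0.0439% called) the median was -0.40, 62 of 76 were negative (81.6%, all genes 50.9%) and 11 had an unadjusted p below 0.05, as had 8.89% of all genes. DESeq2 called 4 (4.6% of all genes) and limma-voom 0 (0.139%).

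Single genes in these comparisons are given by their values. Mrps33 had 238, 218 and 234 CPM in SS MAC-1low samples, below every SS MAC-1- sample (log2 fold change -0.67, SE 0.20, adjusted p = 0.41). Mrps18c, the highest gene per kb, had 1135, 1152 and 896 CPM in 4 week MAC-1- and 350.2, 581 and 824 CPM in SS MAC-1- samples, which do not overlap (0.86, SE 0.33, adjusted p = 0.398). It shares 23.2% of its exon length with another annotated gene on the same strand. Mrpl20 had 284, 321 and 339 CPM in 4 week MAC-1- and 206, 187 and 223 CPM in SS MAC-1- samples (0.62, SE 0.28, adjusted p = 0.47). Mrps5 had the lowest level per kb, and 7.12, 3.14 and 1.23 CPM in SS MAC-1- against 16.7, 20.2 and 17.6 CPM in SS MAC-1low samples (2.25, SE 0.93, adjusted p = 0.521).

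Whether the MAC-1low against MAC-1- difference was another at 4 weeks than at SS was tested as an interaction. It called 0 of 76 genes (0.0586% of all genes), with a median of -0.20 (all genes 0.03) and 5 genes at an unadjusted p below 0.05, as had 8.73% of all genes. DESeq2 called 2 (5.28% of all genes) and limma-voom 0 (0.132%). Any difference among the 5 populations was found for 8 of 76 genes by the joint test, and for 2.22% of all genes. These were Mrps28 (adjusted p = 0.0134), Mrpl14 (0.0155), Mrps14 (0.0183), Mrpl42 (0.0218), Mrpl35 (0.0256), Mrpl17 (0.0317), Mrpl41 (0.0416) and Mrps33 (0.0603). The 4 week MAC-1+ population had the lowest mean of all for 55 of 76 genes, against 22.7% of all genes tested. The highest mean was in SS MAC-1- for 30, in SS MAC-1low for 22, in 4 week MAC-1- for 20, in 4 week MAC-1+ for 3 and in 4 week MAC-1low for 1.

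**Figure D5:**
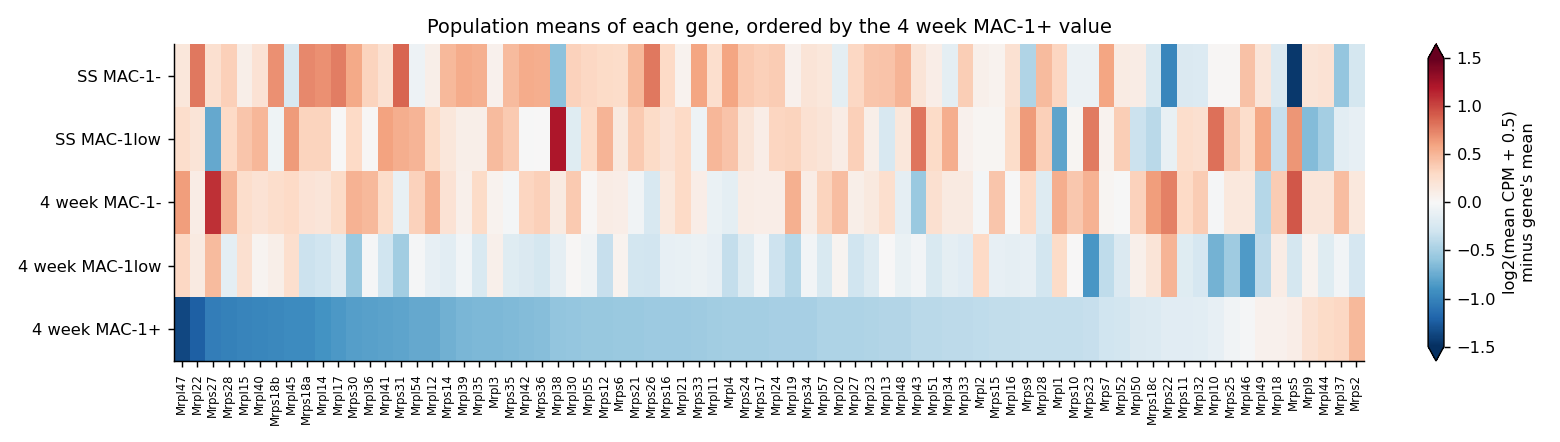
Mean level of each of the 76 genes in the 5 populations (rows), as log2(mean CPM + 0.5) minus the gene's mean over populations (colour, blue low and red high), with genes ordered along the x axis by the 4 week MAC-1+ value. The row of 4 week MAC-1+ HSCs is blue for most genes and holds the lowest mean of 55. The highest mean is in SS MAC-1- for 30, in SS MAC-1low for 22 and in 4 week MAC-1- for 20.

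Other genes of mitochondrial translation were taken from lists chosen by function. Of 5 mitoribosomal proteins with other names, Aurkaip1 was lower in the MAC-1+ than in the MAC-1- population of week 4, with 85.1, 79.8 and 128 CPM against 185, 192 and 256 CPM (log2 fold change -1.11, SE 0.25, adjusted p = 0.0326). Gadd45gip1 (-1.63, SE 0.52, adjusted p = 0.153), Ptcd3 (-1.25, SE 0.73), Chchd1 (-0.71, SE 0.28) and Dap3 (0.53, SE 0.41) were not called there, and Gadd45gip1 was called against SS MAC-1- (-2.06, SE 0.53, adjusted p = 0.0771). Of 23 genes for ribosome assembly and rRNA modification, 1 was lower and 0 were higher in the MAC-1+ than in the MAC-1- population of week 4. It was C1qbp, a mitochondrial matrix protein, at 73.4, 84.9 and 82.8 CPM against 174, 218 and 171 CPM (-1.23, SE 0.31, adjusted p = 0.0563). The median of this list was -0.14.

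None of 13 translation factors (median -0.49) and of 20 genes for aminoacyl-tRNA synthesis (median -0.19) was called by edgeR in this comparison. The proteins of the cytosolic ribosome are encoded by other genes, and 8 of 85 tested were lower and 0 higher. Their median was -0.20 and 69 of 85 estimates were negative. Of all genes tested, 2.06% were lower and 47.3% had a negative estimate. Between the MAC-1+ and MAC-1low populations of week 4 their median was 0.05, while that of the mitochondrial ribosomal proteins was -0.38. The difference between the lists was not tested.

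Promoters are shown for the 5 genes called between the MAC-1+ and MAC-1- populations of week 4 with the longest stretch outside annotated exons. RefSeq promoter windows (GRCm38.p6, 250 bases before to 50 after the start) were at hand for 68 of the genes, and the 5 windows below were cut to bases outside every annotated exon. They are given 5′ to 3′ on the strand of the gene, and capitals mark a match to CCGGAAG, the core recognised by GABPA, an ETS factor known for nuclear genes of mitochondria. Mrps14 (chr1:160194965-160195214, + strand), Mrpl42 (chr10:95501950-95502199, - strand), Mrpl41 (chr2:24975099-24975348, - strand) and Mrpl35 (chr6:71823811-71824034, - strand) hold no match in these bases and Mrpl17 (chr7:105811100-105811337, - strand) holds 1.
Mrps14: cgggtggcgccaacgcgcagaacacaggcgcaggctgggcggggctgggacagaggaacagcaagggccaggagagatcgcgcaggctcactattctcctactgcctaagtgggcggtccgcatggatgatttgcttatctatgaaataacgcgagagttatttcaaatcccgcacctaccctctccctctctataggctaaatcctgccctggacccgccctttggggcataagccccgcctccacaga
Mrpl42: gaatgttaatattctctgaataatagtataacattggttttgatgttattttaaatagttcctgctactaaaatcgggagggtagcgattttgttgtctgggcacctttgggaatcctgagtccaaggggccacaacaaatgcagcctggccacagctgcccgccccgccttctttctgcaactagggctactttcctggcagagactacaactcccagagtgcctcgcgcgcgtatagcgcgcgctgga
Mrpl41: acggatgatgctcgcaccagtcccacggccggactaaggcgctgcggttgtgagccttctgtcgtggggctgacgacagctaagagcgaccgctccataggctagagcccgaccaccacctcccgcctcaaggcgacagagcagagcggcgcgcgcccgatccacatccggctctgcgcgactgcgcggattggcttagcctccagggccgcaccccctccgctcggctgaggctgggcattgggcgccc
Mrpl35: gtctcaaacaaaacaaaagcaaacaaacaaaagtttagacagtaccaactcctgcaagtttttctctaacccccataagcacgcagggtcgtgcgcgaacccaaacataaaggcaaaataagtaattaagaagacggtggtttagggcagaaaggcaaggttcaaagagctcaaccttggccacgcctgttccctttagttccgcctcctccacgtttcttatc
Mrpl17: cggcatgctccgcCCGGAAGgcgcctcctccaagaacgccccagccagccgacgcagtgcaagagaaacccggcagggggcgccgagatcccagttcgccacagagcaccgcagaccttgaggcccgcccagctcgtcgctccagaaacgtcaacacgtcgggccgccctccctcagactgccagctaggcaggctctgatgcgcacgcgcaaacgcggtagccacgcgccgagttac

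On both strands of the whole 300 bases, CCGGAAG was found in 25 of 68 promoters (36.8%), against 9.93% of 27025 genes and 20.4% of those with a mean of at least 10 counts. GCATGCGC, a site of NRF1, was found in 8 (11.8%; 3.05% and 6.08%) and AAGATGGCG, a site of YY1, in 8 (11.8%; 1.64% and 3.68%). CACGTG, the E-box bound by MYC among others, was found in 5 (7.35%; 8.09% and 11.8%). None of these motifs contains another, and 37 of 68 promoters (54.4%) held at least 1. Of the genes called between the MAC-1+ and MAC-1- populations of week 4, Mrpl17 also held an NRF1 match. Mrpl42 and Mrpl35 held a YY1 match after the start, while Mrpl36 held an E-box and a YY1 match. Mrpl22 and Mrpl33, called against SS MAC-1-, each held an NRF1 match and a match to CCGGAAG. A match is a description of letters and not a site of binding.

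Some values rest on reads that other genes could share. Of the 77 rows found in the annotation, 32 genes share exon bases with another gene, from 0.2% of the exon length in Mrps26 to 88.0% in Mrpl53, with 77.8% in Mrps34 and 69.8% in Mrps25. Of the 9 genes called between the MAC-1+ and MAC-1- populations of week 4, Mrpl14 and Mrpl36 (2.6%) share any.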

How the data were processed

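RNA was measured in 16 samples of sorted HSCs from 5 populations. SMART-Seq v4 cDNA, which covers transcripts along their length, has no molecular identifiers and keeps no strand, was made into Nextera XT libraries. The authors deposited 1 table of whole-number counts per gene and sample, without normalization, made with the nf-core pipeline and STAR. For the counting program, genome build and annotation: not given in the sources used here. Columns were matched to samples by their labels.

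Counts were fitted in R 4.3.3 with edgeR 4.0.16 (TMM factors, default filter on low counts, robust quasi-likelihood test) over all 16 samples with a mean per population. Adjusted p are Benjamini-Hochberg values over 13661 genes with a threshold of 0.1, and SE is the log2 fold change divided by the root of F. CPM use TMM factors. DESeq2 1.42.0, limma-voom (limma 3.58.1), other scalings, filters, thresholds, covariates and left-out samples were alternatives. The tools were run on simulated counts with known changes. Recovery of the changed genes was required only at a spread far below that of these data, so this does not show the power of the tests here. The common biological coefficient of variation, edgeR's estimate of the spread between samples, was 1.13 in these data. Exon lengths, overlaps and places come from GENCODE M21 (GRCm38), which held 45229 of 46078 identifiers, and not from the authors' annotation. Plots were drawn with Python 3.11.15 and matplotlib 3.10.9.

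The genes, lists and tests were chosen with earlier results of these data known. Named genes are all called ones, those with the smallest p in 3 comparisons (5 per direction) and in the joint test, the 5 highest and lowest per kb, the 5 most and least variable, those not tested, the Mrps18 paralogs, Mrps30 and Mrps36. Of other mitochondrial translation genes, the called ones and the mitoribosomal proteins with other names are named. The erythroid marker list is not reported here.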

Additional observations from a re-analysis of the deposited data

Results flagged for a closer look

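In the 4 week MAC-1low population, the only one with 4 samples, 54 results (levels of named genes and sums) were examined for a sample far from the other 3, of which chance alone marks about 1 in 20. There were 3. Mrpl52 was 150.3 CPM in replicate 2 against 84.4 to 86.5 CPM in the others. Mrps28 was 117 CPM in replicate 1 against 177 to 184 CPM, and the summed level of the small subunit proteins with a bacterial counterpart was 2759 CPM in replicate 1 against 3347 to 3452 CPM. Replicate 1 also had the lowest summed level of all 76 genes in that population, at 9396 CPM.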

How the results depend on the processing

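Counts of called genes changed most with the tool and the samples fitted. DESeq2 called 20 genes in the MAC-1+ population of week 4 compared with MAC-1- of week 4, 23 compared with SS MAC-1- and 17 compared with SS MAC-1low, 21 in the joint test, 1 for 4 week MAC-1low against 4 week MAC-1-, 3 for 4 week MAC-1+ against 4 week MAC-1low, 3 for SS MAC-1low compared with SS MAC-1-, 2 for MAC-1- of week 4 compared with SS MAC-1-, 4 for MAC-1low of week 4 compared with SS MAC-1low and 2 for the interaction. Limma-voom called 15 for 4 week MAC-1+ and 2 for 4 week MAC-1low against 4 week MAC-1-. Of all genes, DESeq2 called 13.6% in the joint test, and the other shares of both tools stand with each comparison above. With only the groups compared, 4 week MAC-1+ had 2 calls against 4 week MAC-1-, 2 with SS MAC-1- and 0 with SS MAC-1low as the other group. These fits called 1.32%, 0.168% and 0.0087% of all genes. Against SS MAC-1- there were 9 without a filter (0.825% of all genes) and 9 at adjusted p below 0.05. Against 4 week MAC-1- there were 5 with an absolute log2 fold change above 1. The share of all genes was not recorded for the changed thresholds. Leaving out 1 sample gave 5 to 13 calls for 4 week MAC-1+ against 4 week MAC-1-, 9 to 15 against SS MAC-1- (9 without SS MAC-1- replicate 2), 0 to 7 against SS MAC-1low and 0 to 1 against 4 week MAC-1low (1 without 4 week MAC-1+ replicate 1).

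The median log2 fold change between the MAC-1+ and MAC-1- populations of week 4 stayed between -0.79 and -0.56 in all alternatives run. That of the interaction was -0.42 with limma-voom, and -0.42 (without SS MAC-1- replicate 1) to -0.15 with 1 sample left out. The summed level of SS MAC-1low HSCs was 96.2% of SS MAC-1- HSCs by total count alone and 92.3% without the 3 highest genes. Scaling by total count moved the median of all genes between the MAC-1+ and MAC-1- populations of week 4 from 0.07 to 0.22, with 69 of 76 genes still negative. Genes without overlap numbered 28 to 31 under both other scalings. Genes falling at both 4 week steps numbered 49 to 57 under these scalings or with a 4 week sample left out. These alternatives were chosen after seeing the data, and the share of all genes was not recorded for them, so the counts cannot be set against it. Of 1350 values of single named genes, 11 changed sign, all of genes with a positive estimate that was not called. These were Mrpl43 (-0.023) and Mrpl44 (-0.0023) with limma-voom and Mrpl9 (-0.019) with the replicate block, and with 1 sample left out Mrpl49 (-0.38 to 0.84), Mrps2 (-0.24 to 0.75), Mrpl43 (-0.40 to 0.52), Mrpl44 (-0.20 to 0.37) and Mrpl9 (-0.098 to 0.19). The causes were not tested.

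In 30 same-numbered pairs of samples the deviations over all genes tested correlated at -0.0249 to 0.0397, with 0 over 0.1. Over the genes described here they correlated at -0.258 to 0.209. For 4 week samples the running numbers in the library names do not follow the replicate numbers, and pairing by library name was not tested. The correlations and the replicate block therefore cannot show whether 4 week samples were paired. With the replicate block 8 genes were called between the MAC-1+ and MAC-1- populations of week 4 (2.39% of all genes). For 4 week MAC-1+ HSCs there were 12 against SS MAC-1- (1.49%) and 4 against SS MAC-1low (0.739%). The joint test called 6 (1.3%). Of the genes tested here, 10 had under 50 counts in a sample. Some of these had far more in others, as Mrpl43 with 40 to 2727 and Mrps22 with 0 to 2352 counts. The cause was not tested.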
